A study of Mus musculus with 3 samples.

Results

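Germinal centre identity genes are the transcripts by which a B cell in a germinal centre is told from the other B cells of a spleen. 10 such genes were followed here, taken as a list of names: Bcl6, Mef2b, Mybl1, S1pr2, Rgs13, Gcsam, Nuggc, Eaf2, Basp1 and Fas. All 10 were among the 32285 genes of the deposited count matrix. Spleen cells came from 3 LDHA-deficient and 3 LDHA-sufficient mice, labelled KO and WT in the hashtag library. LDHA is lactate dehydrogenase A, the enzyme that turns pyruvate into lactate. Cells of both genotypes were sorted for viability, for B cell staining and on GL7, a surface marker of germinal centre B cells, then marked with 1 antibody hashtag per mouse and captured together as 1 pool. The pool gave 3 libraries, of transcripts read from the 5′ end, of hashtags and of antibody heavy chains, and the series was set up to ask what LDHA does in germinal centre B cells. The deleted part of the gene, any Cre driver, and the strain, age and immunisation of the mice are not stated in the sources used here. For the hashtag and the heavy chain library the cell type field names haematopoietic stem and progenitor cells, which conflicts with the sort, and B lineage markers were found in every cluster.

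In a germinal centre, activated B cells divide, mutate their antibody genes and are selected on the antigen they bind. The repressor BCL6 holds this state by keeping genes of migration, early activation and plasma cell fate low, and MEF2B is among the factors that switch on Bcl6. S1PR2, a receptor for sphingosine-1-phosphate that signals through Gα13, keeps the cells inside the follicle, and FAS is a death receptor commonly used with GL7 to gate these cells in mice.

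Each retained cell was given to the mouse of its hashtag, which left 1849 cells, of which 1765 were of the B lineage. The B cells of the 3 LDHA-deficient mice numbered 268, 360 and 235, and those of the 3 LDHA-sufficient mice ranged between 275 and 320. Their transcript molecules, counted by unique molecular identifier (UMI), totalled 1103273 to 1687986 per LDHA-deficient mouse and 1375363 to 2113599 per LDHA-sufficient mouse. Ldha, the targeted gene, stood at 47.6, 50.01 and 68.0 counts per 1000000 UMIs (CPM) in the B cells of LDHA-deficient mice and at 235, 237 and 167 CPM in those of LDHA-sufficient mice. Its log2 fold change was -1.96 (SE 0.17; edgeR quasi-likelihood test, adjusted p = 2.48e-04), lower in LDHA-deficient cells as their label says. Cell classes were built without the 10 genes and without Ldha, and 2 clusters were named germinal centre (GC) B-like from markers that included Efnb1, Neil1, Lipc and Klhl6. They held 169 cells, against 1578 other B cells outside plasma cells, here called non-GC B cells.

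The promoters below show the sequence around the start sites of 3 of the genes, with the letters searched for in capitals. The mouse RefSeq table of GRCm38.p6 held 11 promoters of 8 of the 10 genes, each from 250 bases before to 50 bases after a start site, and neither Mybl1 nor Nuggc was matched. The octamer ATGCAAAT, bound by the B cell factors OCT1 and OCT2, was in 1 of the 11, the promoter of Mef2b, and in 1.74% of all 32851 promoters in the table. The BCL6 form TTCCNNGAA, searched on both strands, was in 2 of the 11, those of Bcl6 and Fas, and in 4.81% of all promoters. Each match of it is also a match to the wider form bound by STAT factors. The MEF2 form CTAN4TAG, where N4 is any 4 bases, was in 0 of the 11 and in 3.69% of all promoters.

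Bcl6, chr16:23981234-23981533, minus strand, with its TTCCNNGAA matches in capitals: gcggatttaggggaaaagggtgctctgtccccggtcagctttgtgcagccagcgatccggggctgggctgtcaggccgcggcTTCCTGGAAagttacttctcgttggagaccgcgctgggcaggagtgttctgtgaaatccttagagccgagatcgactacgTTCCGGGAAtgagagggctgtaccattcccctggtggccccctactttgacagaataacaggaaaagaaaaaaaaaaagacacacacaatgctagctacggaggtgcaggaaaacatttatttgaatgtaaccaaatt
Mef2b, chr8:70152511-70152810, plus strand, with the octamer in capitals: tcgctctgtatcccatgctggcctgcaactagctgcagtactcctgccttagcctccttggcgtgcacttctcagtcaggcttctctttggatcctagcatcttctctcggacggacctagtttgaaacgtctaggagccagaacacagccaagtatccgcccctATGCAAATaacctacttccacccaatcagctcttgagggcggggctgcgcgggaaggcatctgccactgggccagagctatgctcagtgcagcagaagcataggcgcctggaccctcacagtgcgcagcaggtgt
Fas, chr19:34290409-34290708, plus strand, with the TTCCNNGAA match in capitals, read on the other strand: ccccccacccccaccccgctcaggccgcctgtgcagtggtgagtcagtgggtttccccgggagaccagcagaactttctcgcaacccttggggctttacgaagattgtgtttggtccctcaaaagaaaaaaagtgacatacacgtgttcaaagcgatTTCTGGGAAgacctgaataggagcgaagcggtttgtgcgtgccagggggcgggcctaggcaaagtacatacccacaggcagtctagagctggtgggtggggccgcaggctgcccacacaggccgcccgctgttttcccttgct

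The Bcl6 matches began 168 and 88 bases before the start site, the octamer of Mef2b 85 bases before it and the Fas match 93 bases before it. The Bcl6 promoter shown belongs to a start site inside the gene, and the one at the outer end of the gene, chr16:23988803-23989102, held none of the searched forms. A match of letters is a description of these windows and was not set against any binding data.

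The 10 genes lie on 7 chromosomes of GRCm38, per the GENCODE annotation vM21, with Bcl6 (chr16:23965052-23988852), Gcsam (chr16:45610380-45622867) and Eaf2 (chr16:36792884-36875003) on the same one. Rgs13 (chr1:144138654-144177372) and Mybl1 (chr1:9667415-9700209) are both on chromosome 1. Mef2b spans chr8:70139711-70167488 and shares exon sequence with Borcs8 on the same strand, so its count could hold reads of that gene. Borcs8 itself stood at 65.1 CPM in GC B-like cells and 37.7 CPM in non-GC B cells. Gm37419 overlaps Bcl6 on the other strand and had 0 UMIs in these cells. S1pr2 (chr9:20962361-20976781), Nuggc (chr14:65598546-65648531), Basp1 (chr15:25363277-25413764) and Fas (chr19:34290666-34327772) share no exon sequence with another annotated gene.

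GC B-like cells carried most of the transcripts of 9 of the 10 genes. They were 9.58% of the B cells and held 23.8% of their UMIs, since they were deeper, with a median of 10464 UMIs per cell. They held 90% of the Mybl1 UMIs, 87.7% of those of Nuggc, 87.3% of those of S1pr2 and 84.1% of those of Mef2b. They also held 83.5% of the Basp1 UMIs, 80.4% of those of Gcsam, 74.4% of those of Rgs13, 66.8% of those of Fas and 60.2% of those of Eaf2. Bcl6 stood apart, with 50% of its UMIs outside these cells. As the clusters were made from the same cells, these values describe the classes and carry no test.

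Bcl6 was also the gene with the smallest step in level between GC B-like cells and the next class. The 18 plasma-like cells were set aside from that order, as was a myeloid-named cluster of 84 cells left out of the B lineage. Over all cells of a class, Bcl6 stood at 181 CPM in GC B-like cells and at 92.9 CPM in follicular B-like cells, the next class. That is a ratio of 1.95. Its lowest class was marginal zone B-like cells, at 30.2 CPM. Mef2b, the transcription factor upstream of Bcl6, was at 235 CPM in GC B-like cells and 17.2 CPM in the next class, activated or pre-GC B-like cells, a ratio of 13.7. Mybl1, which encodes the MYB-family transcription factor A-MYB, was at 299 CPM in GC B-like cells and 17.3 CPM in the next class, an unnamed cluster numbered 4, a ratio of 17.2.

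Among the genes of migration and receptor signalling, S1pr2 was at 108 CPM in GC B-like cells and 13.3 CPM in cluster 4, and no S1pr2 UMI was found in interferon-responding B-like cells. Rgs13, a regulator that shortens G protein signalling behind chemokine receptors, was at 161 CPM in GC B-like cells and 34.6 CPM in cluster 4. Gcsam, an adaptor of B cell motility and antigen receptor signalling, was at 129 CPM in GC B-like cells and 15.2 CPM in follicular B-like cells. These ratios of 8.13, 4.65 and 8.49 lay between those of Bcl6 and Mef2b.

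Nuggc, a nuclear GTPase of germinal centre B cells, had the largest step, at 194 CPM in GC B-like cells against 10.4 CPM in follicular B-like cells, a ratio of 18.6. Basp1, a membrane-associated protein that also acts as a transcriptional corepressor, was at 273 CPM in GC B-like cells and 22.8 CPM in follicular B-like cells. In the myeloid-named cluster, outside that order, Basp1 was at 73.8 CPM. Fas was at 87.8 CPM in GC B-like cells and 29.4 CPM in activated or pre-GC B-like cells. Eaf2, a partner of the ELL elongation factors, was at 184 CPM in GC B-like cells and 36.4 CPM in interferon-responding B-like cells, but at 338 CPM in the 18 plasma-like cells. Eaf2 was the only one of the 10 with a higher pooled level in plasma-like than in GC B-like cells. Nuggc was at 42.2 CPM, Basp1 at 32.5 CPM and Mef2b at 26.0 CPM in the plasma-like cells.

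Over mice, the order of the classes was less sharp, with between 5 and 9 GC B-like cells in each LDHA-deficient mouse. Over the 6 mice, Bcl6 averaged 143 ± 70.9 CPM in GC B-like cells, 92.6 ± 32.5 CPM in follicular B-like cells and 90.7 ± 41.1 CPM in cluster 4 (SD, n = 6). It averaged 55.9 ± 32.6 CPM in interferon-responding B-like cells, 53.4 ± 15.9 CPM in unnamed cluster 0, 43.6 ± 17.3 CPM in activated or pre-GC B-like cells and 28.3 ± 16.6 CPM in marginal zone B-like cells. Each class of that order overlapped its neighbour in range. For Rgs13, Mybl1 and Nuggc the ranges over mice of GC B-like cells and of the next class were apart, and for the other 7 genes they overlapped. The share of all genes with such a gap was not counted, so these ranges describe single genes only. The gap was narrow for Mybl1, whose lowest GC B-like value was 82.8 CPM and whose highest cluster 4 value was 82.3 CPM.

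In the 3 LDHA-sufficient mice alone, GC B-like cells averaged 178 ± 34.2 CPM for Bcl6, 247 ± 22.5 CPM for Mef2b and 266 ± 138 CPM for Mybl1 (SD, n = 3). There Mef2b ran from 227 to 271 CPM, against at most 28.0 CPM in activated or pre-GC B-like cells. Basp1 ran from 277 to 341 CPM, against at most 58.8 CPM in cluster 4. Bcl6, at 139 to 198 CPM, still overlapped follicular B-like cells, at 60.9 to 140 CPM. In these mice 9350 genes were ranked by the mean log2 ratio of GC B-like to non-GC B cells. For this 10 CPM was added to each level, which narrows the ratio most at low levels. Mef2b was number 6, Basp1 number 7, Nuggc number 8 and Mybl1 number 12. S1pr2 was number 54, Rgs13 65, Gcsam 79, Eaf2 103, Fas 113 and Bcl6 357. Without that addition, the Bcl6 ratio was 3.99, 3.13 and 1.94 in the 3 LDHA-sufficient mice, against 44.4, 23.4 and 17.1 for Nuggc.

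The GC B-like cells fell into 2 clusters, which differed in the level of some of the 10 genes and were close in others. Cluster 7, of 107 cells with a median of 13440 UMIs, was led by genes that included Neil3, which encodes a DNA repair glycosylase, and Espl1 and Aspm, which act in mitosis. Cluster 8, of 62 cells with a median of 7614 UMIs, was led by Vwa3b, S1pr2, Trerf1 and Nuggc. In LDHA-sufficient mice, cluster 7 was at 162 CPM of Bcl6 against 266 CPM in cluster 8, and at 136 CPM of Rgs13 against 223 CPM. Mybl1 stood the other way, at 348 CPM in cluster 7 and 256 CPM in cluster 8. The clusters were closer for Eaf2, at 200 and 203 CPM, Nuggc, at 201 and 225 CPM, and Basp1, at 312 and 291 CPM. These are pooled values with no test. LDHA-sufficient mouse 3, with 3 cells in cluster 8, went the other way for Bcl6 (147 and 82.3 CPM) and Mybl1 (109 and 123 CPM).

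A single cell showed only some of the 10 genes at the depth of these libraries. To set cells of unequal depth side by side, each was thinned to 2000 UMIs, which kept 167 GC B-like cells and 1530 non-GC B cells. At that depth Mybl1 was detected in 43.1% of GC B-like and 1.76% of non-GC B cells, Basp1 in 35.9% and 3.46%, and Bcl6 in 35.3% and 11.8%. Nuggc was detected in 34.7% of GC B-like and 1.44% of non-GC B cells, and S1pr2 in 26.3% and 0.654%. Without thinning, 77.5% of GC B-like cells had a Mybl1 UMI, 76.3% a Nuggc UMI and 74.0% a Bcl6 UMI.

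Free RNA in droplets gives some UMIs in cells that do not express a gene, and its level was not measured here. Marginal zone B-like cells, of a median 4650 UMIs, were used as a class to compare with. They are part of the non-GC B cells, and whether they express the genes was not tested. At 2000 UMIs, 0 of their 208 cells had Nuggc, which allows a share of up to 1.44%, 0.962% had S1pr2 and the same share had Mybl1. In interferon-responding B-like cells, 0 of 215 had S1pr2 (interval up to 1.70%). Among marginal zone B-like cells, 6.73% had Bcl6 and 4.33% had Eaf2. The shares of non-GC B cells for S1pr2 and Gcsam, 0.654% and 1.90%, were at or below those of marginal zone B-like cells, 0.962% and 1.92%. In follicular B-like cells they were 0.658% and 2.96%, and free RNA and low expression cannot be told apart at these shares. Bcl6, at 11.8% of non-GC B cells, was above its marginal zone share, and Eaf2, at 5.36%, was close to its own.

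Cells with several of the genes at once were almost all GC B-like. The mean number detected at 2000 UMIs was 3.04 of 10 in GC B-like cells and 0.35 in non-GC B cells, and no cell had more than 7. At least 3 were detected in 103 of 167 GC B-like cells (61.7%) and in 8 of 1530 non-GC B cells (0.523%). Of the 111 such B cells, 103 were GC B-like, 4 lay in unnamed cluster 4, 3 were follicular B-like and 1 was activated or pre-GC B-like. At the other end, 23 GC B-like cells and 1086 non-GC B cells had none of the 10. The shares of cells depend on the GL7 sort, since the gate sets how many germinal centre cells enter the pool.

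**Figure D1:**
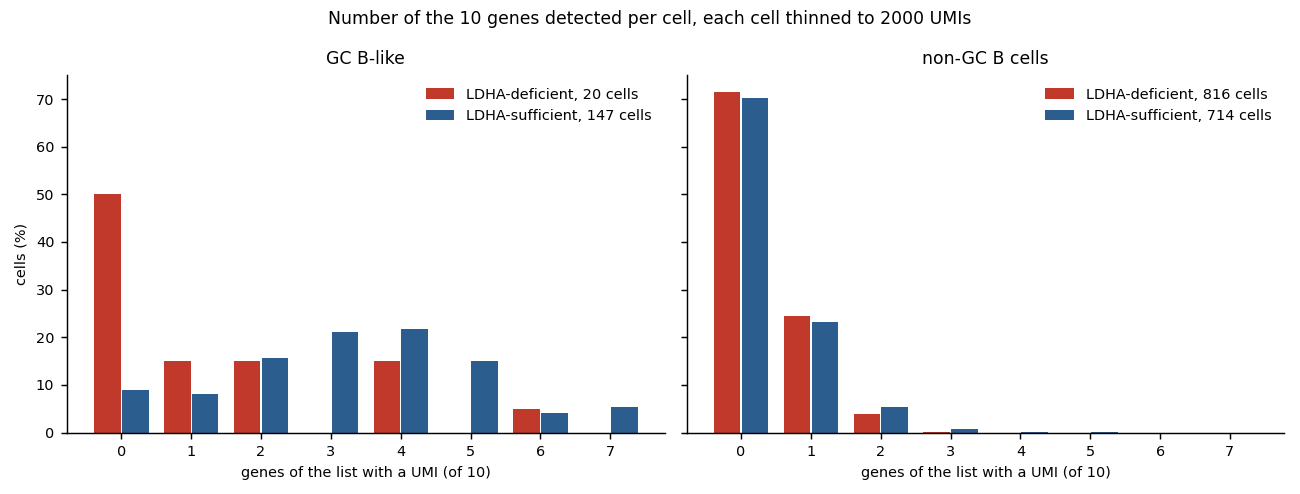
Number of the 10 genes detected per cell after thinning to 2000 UMIs, as the percent of cells of each class and genotype. LDHA-sufficient GC B-like cells had 3 or more in 67.3% of 147 cells, LDHA-deficient ones in 20.0% of 20 cells.

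Pairs of the genes met in the same cell little more often than their separate shares give. In the 147 GC B-like cells of LDHA-sufficient mice, 31 of 45 pairs were found together in more cells than the product of their shares, with a median ratio of 1.09. Gcsam and Basp1 had the highest ratio, with 20 cells against 12.8 expected, a ratio of 1.56, and Nuggc and Fas the lowest, 0.724. Outside the GC B-like cells 25 of 45 pairs were above the product, with a median of 1.29 and few cells in each. Of the 180 non-GC B cells with a Bcl6 UMI, 26.1% had another of the 10, against 19.6% of the cells with no Bcl6 UMI. Droplets holding 2 cells of 1 mouse, of which 167 were expected from the hashtag doublets, were not removed from these counts.

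LDHA-deficient mice had few B cells carrying several of the genes. At least 3 of the 10 were detected in 0.772%, 0.568% and 0.439% of the B cells of LDHA-deficient mice, against 15.2%, 17.5% and 2.26% in LDHA-sufficient mice. The means were 0.593% and 11.6%, a difference of -11.0 percentage points, and the groups did not overlap. The exact two-sided permutation test over mice gave p = 0.1, the smallest that 3 mice against 3 allow. LDHA-sufficient mouse 3 lay nearer to the LDHA-deficient mice than to the other 2 of its own genotype.

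That share counts 2 things at once, how many B cells were GC B-like and how many genes each of those showed. GC B-like cells were 9, 6 and 5 per LDHA-deficient mouse and 61, 74 and 14 per LDHA-sufficient mouse, or 3.36%, 1.67% and 2.13% of B cells against 19.9%, 23.1% and 5.09%. Within the GC B-like cells, at least 3 of the genes were detected in 4 of 20 LDHA-deficient cells (20.0%, exact 95% binomial interval 5.73 to 43.7%) and in 99 of 147 LDHA-sufficient cells (67.3%, interval 59.1 to 74.8%). By mouse these were 1 of 9, 2 of 6 and 1 of 5 cells in LDHA-deficient mice, and 44 of 60, 51 of 74 and 4 of 13 in LDHA-sufficient mice. LDHA-deficient mouse 2, at 2 of 6, and LDHA-sufficient mouse 3, at 4 of 13, were alike in share, so the genotypes overlapped. The intervals above pool cells over mice and cover counting error only, so they do not compare the genotypes.

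The LDHA-deficient GC B-like cells without any of the genes lay in cluster 7. Cluster 7 held 7, 5 and 5 cells of the LDHA-deficient mice and 38, 41 and 11 of the LDHA-sufficient mice, and cluster 8 held 2, 1 and 0 against 23, 33 and 3. In cluster 7, 10 of 17 LDHA-deficient cells (58.8%) and 13 of 88 LDHA-sufficient cells (14.8%) had none of the 10 at 2000 UMIs, and 6 of the 10 were from LDHA-deficient mouse 1. In cluster 8, which held 3 LDHA-deficient and 59 LDHA-sufficient cells, no cell of either genotype had none. The 17 and 3 LDHA-deficient cells come from 3 mice and are not replicates, and doublets of a cycling cell with another cell were not separated from them.

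Summed over all B cells of a mouse, the 10 genes were all lower in LDHA-deficient mice, and none passed the adjusted threshold. edgeR's quasi-likelihood test called 0 of the 10 at an adjusted p under 0.05, where it called 1.08% of 9152 genes. At an unadjusted p under 0.05 it had 9 of the 10, against 17.3% of all genes, and values below 0 for all 10, against 47.6%. The median log2 fold change was -2.24 over the 10 and 0.02 over all genes. In such sums, fewer cells of a type and less RNA per cell cannot be told apart. Markers of T and NK cells summed to 5.92 to 30.7 CPM in LDHA-deficient and 16.6 to 50.7 CPM in LDHA-sufficient B cells, and those of T follicular helper cells to at most 7.27 CPM, with Il21 at 0.

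Of the transcription factors, Bcl6 was at 50.8, 77.2 and 45.6 CPM in LDHA-deficient mice and at 105, 122 and 81.0 CPM in LDHA-sufficient mice, with a log2 fold change at -0.81 (SE 0.20; adjusted p by edgeR, 0.0866). Mef2b was at 7.38, 30.3 and 23.3 CPM in LDHA-deficient mice and at 114, 119.7 and 42.8 CPM in LDHA-sufficient mice (-2.17, SE 0.64; edgeR adjusted p = 0.210). Mybl1 was at 14.8, 22.2 and 14.3 CPM in LDHA-deficient mice and at 158, 147 and 29.0 CPM in LDHA-sufficient mice (-2.70, SE 0.81; edgeR adjusted p = 0.228). The genotypes did not overlap in any of the 3, and LDHA-sufficient mouse 3 was each time the lowest of its genotype. Borcs8, which shares exons with Mef2b, was at 30.7, 40.3 and 36.3 CPM in LDHA-deficient mice and at 48.3, 57.9 and 35.6 CPM in LDHA-sufficient mice, with overlap.

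Of the genes of migration and signalling, S1pr2 was at 3.28, 10.5 and 4.47 CPM in LDHA-deficient mice and at 54.4, 54.7 and 19.1 CPM in LDHA-sufficient mice (log2 fold change -2.75, SE 0.57; edgeR adjusted p = 0.0896). Rgs13 was at 21.3, 30.3 and 28.6 CPM in LDHA-deficient mice and at 61.9, 95.7 and 40.5 CPM in LDHA-sufficient mice (-1.32, SE 0.32). Gcsam was at 9.02, 12.3 and 11.6 CPM in LDHA-deficient mice and at 69.3, 70.7 and 18.3 CPM in LDHA-sufficient mice (-2.30, SE 0.61). None of the 3 overlapped between genotypes.

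Basp1 was at 20.5, 18.5 and 12.5 CPM in LDHA-deficient mice and at 149, 136 and 55.0 CPM in LDHA-sufficient mice (log2 fold change -2.73, SE 0.49; edgeR adjusted p = 0.0937). Nuggc was at 9.02, 13.6 and 17.9 CPM in LDHA-deficient mice and at 104, 91.9 and 26.0 CPM in LDHA-sufficient mice (-2.51, SE 0.68). Eaf2 was at 40.2, 23.5 and 33.1 CPM in LDHA-deficient mice and at 122, 117 and 48.9 CPM in LDHA-sufficient mice (-1.63, SE 0.43). Basp1, Nuggc and Eaf2 did not overlap between the genotypes. Summed plasma cell markers, which move with Eaf2, ran from 309.2 to 758 CPM in LDHA-deficient and from 1427 to 3114 CPM in LDHA-sufficient B cells, and their part in its difference was not tested.

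Fas, at 9.84, 24.7 and 14.3 CPM in LDHA-deficient mice and 52.6, 48.1 and 13.8 CPM in LDHA-sufficient mice, was the only one of the 10 whose genotypes overlapped (log2 fold change -1.23, SE 0.59; edgeR adjusted p = 0.368). Lower values without overlap were thus found for 9 of the 10, against 10.6% of all 9152 genes. Without LDHA-sufficient mouse 3 edgeR called all 10, where it called 15.7% of 9557 genes. DESeq2 called 8 of the 10 on the full set of mice, where it called 1.09% of 16486 genes.

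**Figure D2:**
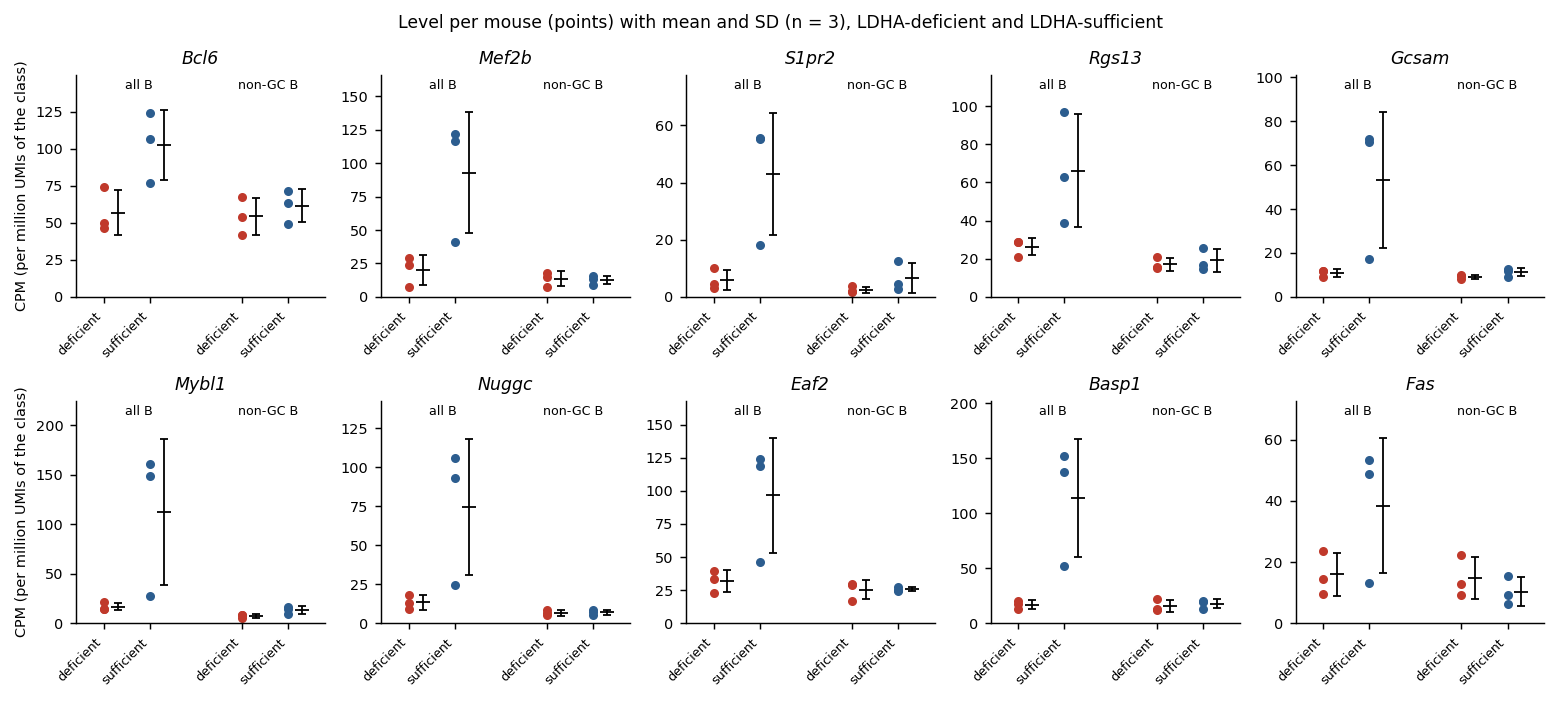
Level of each of the 10 genes per mouse, in CPM of the class without further scaling, in all B cells and in non-GC B cells, with LDHA-deficient left of LDHA-sufficient. In all B cells LDHA-sufficient mouse 3 lies below the other 2 of its genotype for each gene, and in non-GC B cells the genotypes overlap for most.

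Without the GC B-like cells the share of cells with at least 3 of the genes was 0.403%, 0% and 0% in LDHA-deficient mice and 0.439%, 1.68% and 0.806% in LDHA-sufficient mice. The groups still did not overlap (exact two-sided permutation p = 0.1, the smallest possible). This rested on 1 of 816 LDHA-deficient cells (exact 95% binomial interval 0.0031 to 0.681%) and 7 of 714 LDHA-sufficient cells (0.395 to 2.01%). These intervals pool cells over mice and cover counting error only, so they do not compare the genotypes. For the level of each gene in non-GC B cells, edgeR called 0 of the 8 genes that passed its filter on low counts, where it called 0.0828% of 8451 genes, and DESeq2 called 0. Their median log2 fold change was -0.17, against -0.00 over all genes. Bcl6 was at 54.0, 69.6 and 41.3 CPM in LDHA-deficient mice and at 49.99, 64.4 and 73.4 CPM in LDHA-sufficient mice, with overlap (-0.15, SE 0.17).

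Mybl1 was the 1 gene of the 8 with an unadjusted p under 0.05 in non-GC B cells, against 4.97% of all genes. It was at 8.24, 9.03 and 4.91 CPM in LDHA-deficient mice and at 14.8, 9.34 and 16.5 CPM in LDHA-sufficient mice (log2 fold change -0.83, SE 0.37; edgeR unadjusted p = 0.0308, adjusted p = 0.996). It was also the only one of the 8 lower without overlap, against 5.38% of all genes. Fas had the largest positive value, at 9.16, 23.2 and 12.8 CPM in LDHA-deficient mice and 9.26, 15.9 and 6.43 CPM in LDHA-sufficient mice, with overlap (0.59, SE 0.36). S1pr2 and Nuggc were too low to test there, with 2, 6 and 2 S1pr2 UMIs in LDHA-deficient mice and 3, 5 and 14 in LDHA-sufficient mice.

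**Figure D3:**
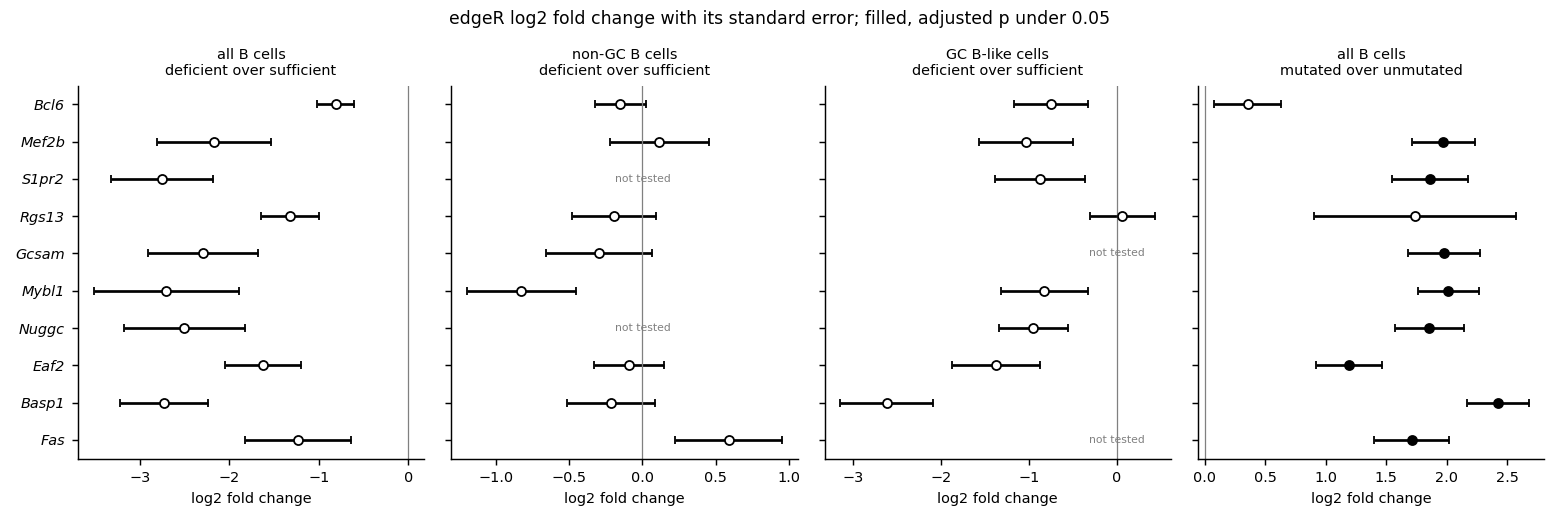
Log2 fold change of each of the 10 genes with its SE, LDHA-deficient over LDHA-sufficient in all B cells, non-GC B cells and GC B-like cells, and mutated over unmutated heavy chains, with filled points for an adjusted p under 0.05. All 10 values in all B cells are below 0 with none called, and for mutated over unmutated all 10 are above 0 with 8 called.

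Where the remaining transcripts lay also differed in description. In LDHA-deficient mice 29 of 238 Bcl6 UMIs (12.2%) came from GC B-like cells, against 385 of 590 (65.3%) in LDHA-sufficient mice. For Basp1 these were 13 of 69 (18.8%) and 613 of 681 (90.0%), and for Fas 13.2% and 82.4%. Pooled over mice, GC B-like cells gave 60% of the Mybl1, 61.5% of the S1pr2 and 50.9% of the Nuggc UMIs in LDHA-deficient mice, against 93.0%, 89.9% and 92.1% in LDHA-sufficient mice. LDHA-sufficient mouse 3 stood lower than the other 2 of its genotype, with 52.6% for Mybl1, 44% for S1pr2 and 64.7% for Nuggc.

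Within GC B-like cells the comparison rested on 20 LDHA-deficient and 149 LDHA-sufficient cells. Ldha itself, lower there without overlap, was not called (log2 fold change -2.17, SE 0.38; edgeR adjusted p = 0.0999). edgeR called 0 of the 8 genes that passed the filter and 0% of 2712 genes, with 3 of the 8 and 203 genes (7.49%) at an unadjusted p under 0.05, and DESeq2 called 1 of the 10 and 0.0935% of 13904 genes. Basp1 had 1, 11 and 1 UMIs in LDHA-deficient mice and 294, 269 and 50 in LDHA-sufficient mice, or 11.4, 165 and 13.3 CPM against 391, 329 and 338 CPM. It was the only one of the 8 lower without overlap, against 6.12% of genes (log2 fold change -2.62, SE 0.53; edgeR adjusted p = 0.212). Of its 13 LDHA-deficient UMIs, 11 came from mouse 2, without which the value was -4.83 and was called (edgeR adjusted p = 8.96e-04). Over all alternatives the adjusted p of Basp1 ran from 4.55e-10 to 0.875, and DESeq2 gave 0.0231.

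The other genes were closer between genotypes in these cells. Bcl6 was at 34.3, 256 and 120 CPM in LDHA-deficient mice and 226, 232 and 169 CPM in LDHA-sufficient mice, with overlap (-0.75, SE 0.42). Rgs13 was at 103, 376 and 147 CPM in LDHA-deficient mice and 156, 214 and 216 CPM in LDHA-sufficient mice, with overlap (0.06, SE 0.37). LDHA-deficient mouse 2 had the highest value of all 6 mice for both. Eaf2 (-1.38) and Nuggc (-0.95) had unadjusted edgeR p-values of 0.0180 and 0.0286.

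Whether the genotype difference in GC B-like cells was unlike that outside them was tested as an interaction over 12 sums, a GC B-like and a non-GC sum of each mouse, with the mouse as a block. edgeR called 0 of the 10, where it called 0.11% of 9093 genes, and DESeq2 called 0 of the 10. Mef2b, Gcsam, Eaf2, Basp1 and Fas had an unadjusted p under 0.05, against 7.01% of all genes. Basp1 had the largest difference, -2.59 (SE 0.69; edgeR adjusted p = 0.275), and Fas followed at -1.97 (SE 0.61; edgeR adjusted p = 0.265). Basp1 was called without LDHA-deficient mouse 2, at -4.94, and without any 1 of the LDHA-sufficient mice, at -2.66 to -2.38.

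Heavy chains gave a measure of the germinal centre that none of the transcript counts entered. A chain was called mutated when its V segment was under 0.99 identical to the germline, and 66 of 1092 cells with a usable chain were mutated, 46 of them among the 107 GC B-like cells with one. By mouse these were 2, 5 and 4 cells in LDHA-deficient mice and 21, 30 and 4 in LDHA-sufficient mice. Over all B cells, classes mixed, the mutated share went with the number of the 10 genes detected at 2000 UMIs. It was 12 of 706 (1.70%, exact 95% binomial interval 0.88 to 2.95%) with 0 genes, 7 of 246 (2.85%) with 1, 11 of 56 (19.6%) with 2 and 34 of 69 (49.3%, interval 37.0 to 61.6%) with 3 or more.

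The cells with 3 or more genes came mainly from 2 mice. The mutated were 12 of 25 in LDHA-sufficient mouse 1 and 21 of 37 in mouse 2, and 0 of 5 in mouse 3, which allows a share of up to 60%. LDHA-deficient mouse 2 had 1 of 1 and LDHA-deficient mouse 3 had 0 of 1. Within GC B-like cells 1 of 15 cells with 0 genes and 0 of 8 with 1 (interval up to 36.9%) were mutated. There the share was 11 of 20 (55.0%) with 2 genes and 34 of 64 (53.1%) with 3 or more, so it did not rise between these. Outside GC B-like cells 0 of 36 cells with 2 genes were mutated (interval up to 9.74%), and 0 of 5 with 3 or more. The intervals given here cover counting error only.

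Over all B cells with a given gene detected, the mutated share was highest for S1pr2 and lowest for Bcl6, of whose 144 cells 105 were non-GC B cells. Mutated chains were in 16 of 31 cells with S1pr2 (51.6%) and in 4.59% of those without it, and in 25 of 54 with Nuggc (46.3%) and 3.81% without. They were in 20 of 144 cells with Bcl6 (13.9%) and in 4.72% of those without it. Within GC B-like cells the share was 66.7% with S1pr2 and 36.1% without it, and 46.2% with Bcl6 and 41.2% without it. There it was 42.9% with Mybl1 and 43.1% without it, and 42.3% with Rgs13 and 43.2% without it. These shares pool cells over mice and carry no test.

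**Figure D4:**
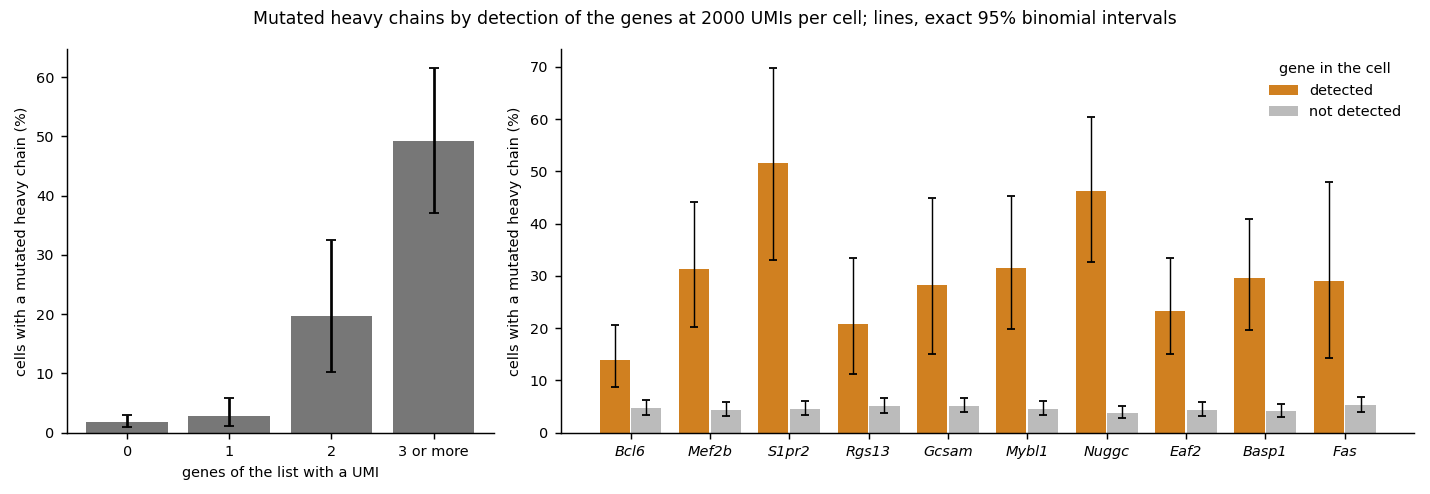
Percent of cells with a mutated heavy chain, by the number of the 10 genes detected and by each gene, with exact 95% binomial intervals as lines. Over all B cells, classes mixed, the share is 1.70% with 0 genes detected and 49.3% with 3 or more, and highest for S1pr2, at 51.6%, among the single genes.

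The level of the genes in mutated against unmutated B cells was tested within mice. The 3 mice with at least 5 mutated cells, LDHA-deficient mouse 2 and LDHA-sufficient mice 1 and 2, gave 6 sums, and the mouse was kept as a block. edgeR called 8 of the 10 genes higher in mutated cells, where it called 5.12% of 7542 genes higher. The median log2 fold change was 1.86 over the 10 and -0.04 over all genes. With 3 mice, this test took most of its spread from all genes together. Its small p-values therefore do not measure how a difference varied from mouse to mouse.

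Values below are given for LDHA-deficient mouse 2, LDHA-sufficient mouse 1 and LDHA-sufficient mouse 2, in that order. Basp1 rose most, at 101, 388 and 433 CPM in mutated cells and 15.8, 93.5 and 63.9 CPM in unmutated cells (log2 fold change 2.42, SE 0.26; edgeR adjusted p = 1.73e-18). Mybl1 was at 279, 335 and 325 CPM in mutated cells and 12.8, 112 and 97.2 CPM in unmutated cells (2.01, SE 0.25; edgeR adjusted p = 1.05e-12). Mef2b was at 253, 278 and 259 CPM in mutated cells and 27.6, 73.9 and 86.1 CPM in unmutated cells (1.97, SE 0.26; edgeR adjusted p = 4.78e-12). All 3 were higher in mutated cells in each of the 3 mice.

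S1pr2 rose with them, at 50.7, 88.8 and 157 CPM in mutated cells and 9.86, 35.5 and 32.4 CPM in unmutated cells (1.86, SE 0.32). Nuggc was at 50.7, 210 and 254 CPM in mutated cells and 13.8, 66.4 and 61.1 CPM in unmutated cells (1.86, SE 0.29). Fas was at 101, 97.7 and 127 CPM in mutated cells and 24.6, 41.1 and 29.6 CPM in unmutated cells (1.71, SE 0.31). Eaf2 rose least of the 8 (1.19, SE 0.27; edgeR adjusted p = 2.76e-04). Gcsam also rose (1.98, SE 0.30), though LDHA-deficient mouse 2 had 0 CPM of it in its 5 mutated cells against 16.8 CPM in its unmutated cells.

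Bcl6 and Rgs13 were not called. Bcl6 was at 127, 94.7 and 174 CPM in mutated cells and 77.9, 102 and 111 CPM in unmutated cells (0.35, SE 0.28; edgeR adjusted p = 0.516). Rgs13 was at 481, 115 and 141 CPM in mutated cells and 20.7, 47.7 and 81.4 CPM in unmutated cells (1.74, SE 0.83; edgeR adjusted p = 0.377). Rgs13 was higher in mutated cells in each of the 3 mice but by unequal amounts, and Bcl6 was lower in 1 of them. Without LDHA-sufficient mouse 2 the called genes numbered 5, where 1.55% of 7611 genes were called higher. Most mutated cells were GC B-like, and within GC B-like cells alone the pooled levels were 464 CPM in mutated and 172 CPM in unmutated cells for Basp1, against 161 and 170 CPM for Bcl6.

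The genes around the 10 moved in few cases between genotypes. Of 16 transcription factors of the Bcl6 circuit, all tested, edgeR called 1 in all B cells, against 1.08% of all genes. It was Myc, the growth regulator, higher at 0.70 (adjusted p = 0.0332). The median of the 16 was 0.04. Of 12 tested genes described as repressed by BCL6, 0 were called, 10 had positive values, against 52.4% of all genes, and the median was 0.34, against 0.02 over all genes. S1pr1, the receptor that draws cells to the blood, was at 0.54 (SE 0.14; edgeR adjusted p = 0.0828). All 7 corepressors of BCL6 were tested and 0 were called, of which Ctbp1, at -0.27, had the smallest p.

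Of the 10 tested genes of the dark zone, where germinal centre B cells divide, 3 were called lower in LDHA-deficient B cells, against 0.918% of all genes, and the median was -1.48. Cdca2, a phosphatase regulator of mitosis, was at -1.96 (edgeR adjusted p = 0.00438), Ccnb1, a mitotic cyclin, at -1.95 (edgeR adjusted p = 0.00590), and Cenpf, a kinetochore protein, at -1.49 (edgeR adjusted p = 0.0158). Of the 9 tested genes of the light zone, 2 were called higher, against 0.164% of all genes, Myc and Egr3, an early response gene of the antigen receptor, at 1.00. Of 10 tested other germinal centre genes 0 were called, with Lipc at -1.51, Klhl6 at -0.51, Lmo2 at 0.41 and Neil1 at -2.04. Without the GC B-like cells edgeR called 0 of the 5 dark zone and 0 of the 9 light zone genes it could test. Myc and Egr3 were also markers that named the activated or pre-GC class. Within GC B-like cells the 2 light zone genes tested had a median of -1.14, against 0.03 over all genes, with 0 called. In the interaction the 9 tested had a median of -1.77, against -0.15 over all genes. There edgeR called 1 of the 9, Cd83, lower, where it called 0.11% of 9093 genes in either direction.

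Relatives and partners of single genes gave 2 calls. Of 6 tested RGS genes other than Rgs13, 2 were called lower, against 0.918% of all genes, Rgs2 at -1.02 and Rgs10 at -0.85 (edgeR adjusted p = 0.0378 and 0.0486). Of the 7 genes of S1P receptors and Gα13 signalling, 6 tested genes of the FAS death pathway, 5 of the MYB and MEF2 families and 5 ELL partners of EAF2, 0 were called. Mybl2, a relative of Mybl1 active in dividing cells, was at -1.26 (SE 0.33; edgeR adjusted p = 0.0897). In mutated against unmutated cells, edgeR called 5 of 10 tested genes described as repressed by BCL6 lower, against 6.93% of all genes, and these 5, Gpr183, S1pr1, Ccnd2, Bcl2 and Nfkb1, are named because they were called.

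The genes most like the 10 in their pattern were named by correlation over 38 sums of a class in a mouse, of which 2 were GC B-like. Pearson's r with the mean of the 10 was 0.887 for Hist1h1b, a linker histone, 0.883 for Top1, a topoisomerase, and 0.878 for H2afx, a histone variant marked at DNA breaks. It was 0.866 for Ankle1 and 0.856 for 3425401B19Rik. Among the 10 themselves the nearest pair was Gcsam and Nuggc (0.763), and the gene with the weakest nearest neighbour was Bcl6, nearest to Nuggc (0.612). The sums share 1 library and differ in depth, so these values describe the pattern and carry no p.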

How the data were processed

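The authors deposited whole UMI counts per gene and barcode (2836 barcodes, 32285 genes) and per hashtag, and heavy chain contigs whose V identity is a fraction. The submitters' processing notes name Cell Ranger 6.0.0, Seurat 4.2.1 and mm10, while per the file header it was Cell Ranger 6.0.2. The 10 genes and the gene lists were chosen with earlier results of these data known.

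Hashtags were called with Seurat 5.3.0 (HTODemux, positive quantile 0.99), which gave 1856 single, 820 doublet and 155 negative barcodes. Cells needed 500 genes, 1000 UMIs and under 10% mitochondrial UMIs. Scrublet called 4 further doublets, and those of 1 mouse mostly remained. Clustering (scanpy 1.11.5, Leiden, resolution 0.8) left out the 10 genes, Ldha, antibody and T cell receptor segments and mitochondrial, ribosomal and sex-linked genes. A cluster was named from at least 3 markers at 1.5 times the level elsewhere and in 10% of its cells. A myeloid-named cluster of 84 cells was left out of the B lineage, though 91.7% of its cells had Cd79a.

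Counts were summed per mouse, the replicate, and tested with edgeR 4.0.16 (quasi-likelihood, TMM, filterByExpr, Benjamini-Hochberg over all genes tested, threshold 0.05), tested on simulated data beforehand. The SE is the absolute log2 fold change over the root of the F statistic. CPM in the fits use TMM library sizes, and CPM of classes use plain totals. Nothing in the labels pairs mice of the genotypes, while mutated and unmutated sums, and GC B-like and non-GC sums in the interaction, share their mouse, which was the block. Heavy chains of clones in 3 or more mice were left out. Named besides the 10 genes were Ldha, up to 4 genes per list with the smallest p in all B cells, and the 5 most alike, by correlation of log2(CPM + 10) over sums of at least 20 cells. Alternatives were DESeq2 1.42.0, no filter, other cell, hashtag and cluster settings, other V thresholds, and each mouse left out. Promoter forms were matched letter by letter on both strands.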

Additional observations from a re-analysis of the deposited data

How the results depend on the processing

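The count of the 10 genes called between genotypes in all B cells was 0, where 1.08% of 9152 genes were called. It was 3 with no filter (709 of 16486 genes) and 8 by DESeq2 (1.09% of 16486 genes). With each mouse left out it was 0 to 10, the 10 being without LDHA-sufficient mouse 3 (15.7% of 9557 genes). In non-GC B cells it was 0 under every alternative run. In GC B-like cells it was 3 with no filter, 1 by DESeq2 (0.0935% of 13904 genes) and 2 with hashtags called by ratio. It was 1 with the 10 genes kept in the clustering. With each mouse left out it was 0 to 1, the 1 being without LDHA-deficient mouse 2. For the interaction it was 1 with no filter, 1 with hashtags by ratio and 0 to 1 with each mouse left out, with 1 when LDHA-deficient mouse 2 or any 1 LDHA-sufficient mouse was left out. In mutated against unmutated cells 8 were called, against 4 with no replicate block, 3 with V identity under 0.98 and 5 to 9 with each mouse left out, the 5 being without LDHA-sufficient mouse 2. The share of all genes called also moved between alternatives. Where that share is not printed beside it, a count describes the setting and is not read as a result about the 10 genes. The difference in the share of B cells with 3 or more genes ran from -15.7 to -8.14 percentage points with each mouse left out.

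No called log2 fold change changed sign. Of those not called that did, the non-GC B cell values with each mouse left out ran from -0.39 to 0.0044 for Bcl6, -0.24 to 0.39 for Mef2b, -0.35 to 0.077 for Rgs13 and -0.22 to 0.16 for Eaf2. Mef2b was -0.52 with the highest doublet scores removed, and Basp1 0.0092 with the 10 genes kept. In GC B-like cells Rgs13 was -0.13 with no filter, -0.87 with hashtags by ratio, -0.21 with doublet scores, -0.54 with the 10 genes kept, -0.27 at resolution 0.4 and -0.65 to 0.40 with each mouse left out. For the interaction, S1pr2 was -0.54 with hashtags by ratio, -0.51 with the 10 genes kept, -0.024 at resolution 0.4 and -0.49 to 1.01 with each mouse left out. Rgs13 was -0.010 with no filter, -0.83 with hashtags by ratio, -0.029 with looser cells, -0.049 with doublet scores, -0.47 with the 10 genes kept, -0.095 at resolution 0.4 and -0.66 to 0.44 with each mouse left out. It was -0.00036 with marker-free cells of the myeloid-named cluster kept, an alternative chosen after seeing the data. Mybl1 was 0.14 by DESeq2, 0.023 at resolution 0.4 and -0.50 to 0.46 with each mouse left out. The cause of these moves was not tested. A fit with at least 10 GC B-like cells per mouse could not be run, since no LDHA-deficient mouse had them. The few LDHA-deficient GC B-like cells and the depth per cell limit what could be detected.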

Other observations

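Bcl6 in the unnamed cluster 4, singled out after its values were seen, was at 49.9, 43.0 and 71.1 CPM in LDHA-deficient mice and at 124, 138 and 118 CPM in LDHA-sufficient mice. The genotypes did not overlap there, in a cluster of 251 cells that no marker list named, and the difference was not tested.

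Fas in activated or pre-GC B-like cells, also singled out after its values were seen, was at 79.6 CPM in LDHA-deficient mouse 2 and between 7.002 and 21.6 CPM in the other mice. LDHA-deficient mouse 2 held 21 of the 36 Fas UMIs of that class.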
